A study of Mus musculus with 9 samples.

Results

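Macrophages are resident and recruited phagocytes of the ovary, and 36 genes that mark them or that they use were followed through RNA sequencing of mouse corona radiata cells, the layer of cumulus (granulosa) cells around the oocyte. The members were chosen by symbol, and all 36 were found among the 54838 genes of the deposited matrix. They comprised 9 identity genes, 3 complement C1q chains, 6 Fc receptor and adaptor genes, 6 receptors for uptake and pattern recognition, 3 lysosomal genes, 2 oxidase subunits and 7 genes shared with other leukocytes. The labelled tissue is granulosa and not macrophage, and several of these genes are also expressed by other cells. Adgre1 was nevertheless present in every library, at 4.04 RPKM or more. Csf1r was listed at 6.64 RPKM or more, but its exons overlap those of another gene, so its values are uncertain. The identity genes Aif1, Ms4a7 and Cx3cr1 stayed under 1 RPKM in some libraries.

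The cells came from adult mice of 3 genotypes, each with 3 libraries, after an ovarian stimulation with PMSG, which drives follicle growth, and hCG, which triggers ovulation. The labels add "J4" to that treatment without explaining it, and all 9 libraries share it. WT libraries carry no engineered allele in the labels. DKO LXR libraries, called LXR DKO here, lack both liver X receptors, the oxysterol-activated nuclear receptors that govern cholesterol and lipid handling and, in macrophages, also genes of cell clearance and inflammation. The libraries labelled DKO LXR TG-AMH-LXRb, called transgenic here, carry the same double knockout and a transgene. The labels describe neither the promoter of the transgene nor the deleted part of either receptor gene, and do not say whether the knockout was made in all cells. The labels do not tie the libraries to separate animals. The p-values below therefore reflect only how far these samples differ from one another, and that spread may be technical.

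Macrophages depend on the growth factor receptor CSF1R and on the transcription factor PU.1, encoded by Spi1, which binds purine-rich DNA at many of their genes. They recognise opsonised and dying cells through Fc receptors, C1q and receptors such as MERTK, signal through the adaptors TYROBP and FCER1G, digest cargo with lysosomal cathepsins and lysozyme, and produce superoxide with a membrane oxidase. In the ovary they are known for clearing apoptotic granulosa cells and for roles at ovulation and in the corpus luteum.

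Levels are the RPKM values the authors deposited (read numbers corrected for gene length and for library size), with means ± SD over n = 3 libraries. Differences are log2 fold changes ± SE, fitted in limma to log2(RPKM + 1) with Benjamini-Hochberg adjustment over 16422 tested genes. A gene was tested where 3 or more of the 9 libraries had 1 RPKM or more, and a difference is called where the adjusted p is below 0.05. Of the 36 members, 34 were tested. Among those, 26 reached 1 RPKM in every library, while 7 (Aif1, Ms4a7, Cx3cr1, Fcgr1, Mrc1, Ly86 and Ptprc) stayed under 1 RPKM in every transgenic library and so entered the test through the other genotypes. Reads worked back from the values numbered 30477626 to 45042939 per library. Of the 36 members, 33 gave whole reads and 25 had at least 100 reads in every library.

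Nr1h2, the gene of LXR beta, stood at 45.7, 39.7 and 39.7 RPKM (WT 1 to 3), 3.57, 2.85 and 3.03 (LXR DKO 1 to 3) and 4.83, 5.28 and 6.70 (transgenic 1 to 3). Nr1h3, the gene of LXR alpha, measured 3.5, 5.72 and 4.95, then 1.08, 0.713 and 0.933, then 0.395, 0.819 and 0.539 RPKM in the same order. Both receptors were thus low in the knockout libraries, and Nr1h2 in the transgenic libraries stayed well below WT. The granulosa gene Inha, the inhibin alpha chain, lay at 150 to 307 RPKM in all 9 libraries, whereas Cyp19a1 (aromatase) did not exceed 1.19 RPKM. Libraries also differed in other cell types. WT 1 and LXR DKO 1 contained oocyte transcripts, with the oocyte gene Gdf9 at 126 and 136 RPKM against 0.505 to 10.9 in the other 7 libraries. WT 3 stood apart in haemoglobin, with Hba-a2 at 3150 RPKM against 17.4 to 257 elsewhere.

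The promoters of a pair of C1q genes are shown because C1qa, C1qb and C1qc sit side by side and shared a pattern across genotypes. The 3 genes lie on the minus strand of chromosome 4 in mm10, C1qb at 136880129 to 136886187, C1qc at 136889804 to 136893065 and C1qa at 136895917 to 136898803. The sequences run from 250 bases before to 50 bases after the start site and come from RefSeq (GRCm38.p6), which had such windows for 27 of the 36 members. Capitals mark GAGGAA, the core of a PU.1 site, or its complement where it lies on the other strand.
C1qb (chr4:136886151-136886450, minus strand): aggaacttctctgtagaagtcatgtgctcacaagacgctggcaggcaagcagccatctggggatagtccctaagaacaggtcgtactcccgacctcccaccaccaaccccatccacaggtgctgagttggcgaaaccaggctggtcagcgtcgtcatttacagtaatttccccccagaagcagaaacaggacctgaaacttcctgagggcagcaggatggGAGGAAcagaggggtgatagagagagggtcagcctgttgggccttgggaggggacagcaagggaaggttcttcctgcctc
C1qc (chr4:136892865-136893164, minus strand): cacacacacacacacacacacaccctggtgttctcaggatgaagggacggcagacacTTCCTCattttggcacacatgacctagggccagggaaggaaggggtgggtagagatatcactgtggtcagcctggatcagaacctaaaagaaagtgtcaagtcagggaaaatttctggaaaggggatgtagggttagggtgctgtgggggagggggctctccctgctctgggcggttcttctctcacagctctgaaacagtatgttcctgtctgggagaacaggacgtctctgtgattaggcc
In C1qb the core begins 30 bases before the start site, and in C1qc the match begins 193 bases before it. Searched on both strands, GAGGAA was present in 18 of the 31 windows of the members (58.1%) and in 28.3% of the 32851 windows of all genes. The longer PU.1 site GAGGAAGT, which contains that core, was present in 4 of 31 windows (12.9%, in C1qc, Cd53, Ctss and Pf4) against 3.20% of all windows. TGANTCA, the AP-1 site, was present in 4 of 31 windows (12.9%, in Cd68, Cybb, Ms4a7 and Trem2) against 7.81%. These are counts of letters in a window, with no measurement of binding, and some members have more than 1 window.

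Levels of the members spanned a wide range. Lyz2 was the highest at 296 to 896 RPKM across libraries, followed by a group that included C1qb (29.6 to 139), Cd52 (23.9 to 152) and Ctss (26.8 to 125). At the other end, the scavenger receptor Cd163 lay between 0.00832 and 0.438 RPKM, with as few as 2 reads in a library, and the lipid receptor Trem2 between 0.346 and 1.96. Neither reached the level needed for the test. Most members followed a common order of libraries, as the map of members by library shows. The mean log2(RPKM + 1) of all 36 members was 3.22, 3.48 and 3.83 (WT 1 to 3), 3.31, 3.72 and 3.81 (LXR DKO 1 to 3) and 2.76, 2.64 and 2.94 (transgenic 1 to 3). Every transgenic library lay below every other library by this measure. Within WT, replicate 3 was the highest library in 28 of 36 members and replicate 1 the lowest in 29. Within LXR DKO, replicate 1 was the lowest in 27. A transgenic library was the lowest of the 9 in 30 members and the highest in 0, which was not counted over all genes.

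**Figure D1:**
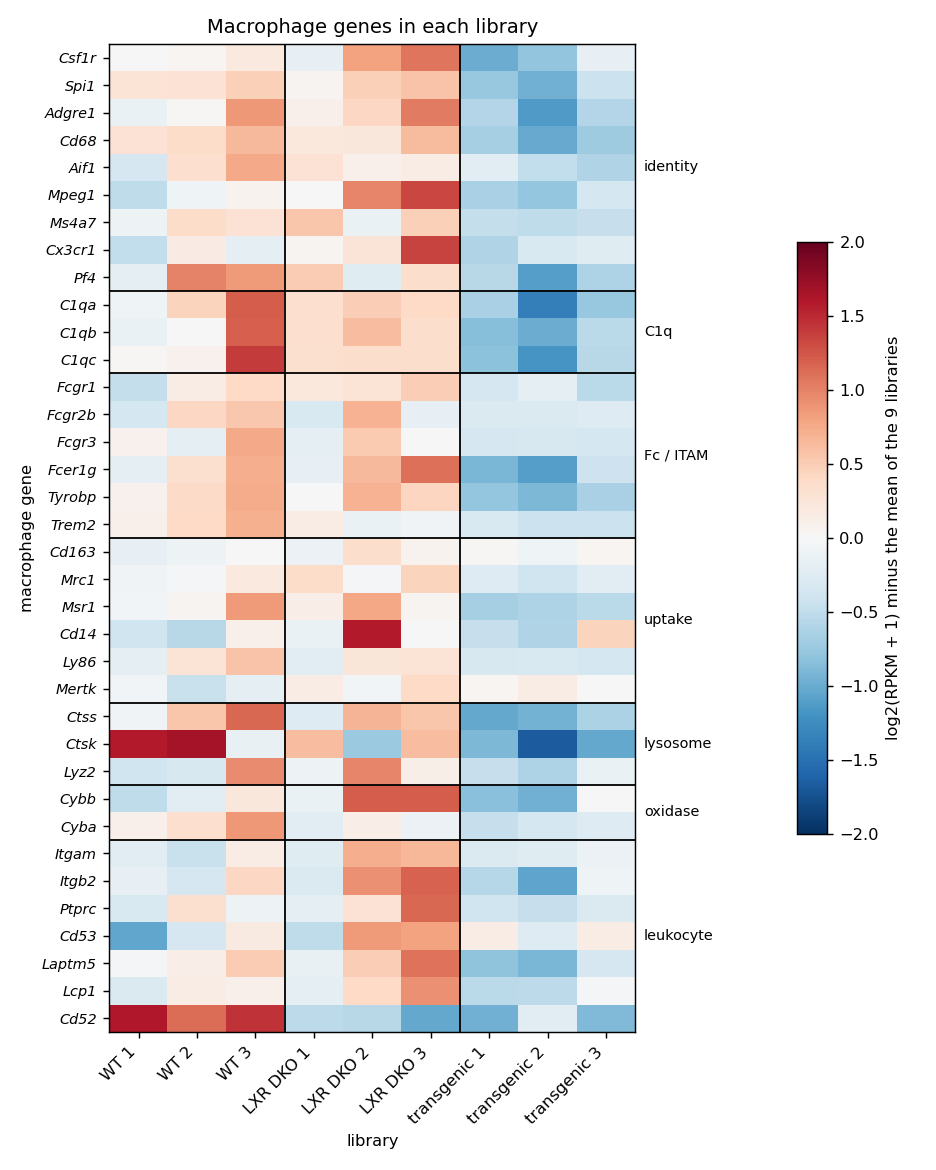
Log2(RPKM + 1) of the 36 macrophage genes (rows, grouped by role) in each library (columns, 3 per genotype), minus the gene's mean over the 9 libraries, with red above and blue below that mean. Most rows are blue in the 3 transgenic columns, while the Cd52 row is red only in WT and the Ctsk row is pale in WT 3 and red in WT 1 and WT 2.

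The first question is whether loss of both receptors was accompanied by a change in macrophage genes. Of the 34 tested members, 1 was called lower in LXR DKO than in WT, Cd52, beside 7.12% of all genes tested, and 0 were called higher, beside 3.47% of all genes. The median log2 fold change was 0.17 over the tested members (0.16 over all 36 without the filter) and 0.02 over all genes. Without WT 1 the median of the members was -0.01. Of the tested members 21 lay above 0 and 13 below, beside 8620 and 7802 of the 16422 genes tested. The ratio of the LXR DKO mean to the WT mean had a median of 1.16 over the 36 members. In either direction an unadjusted p under 0.05 was reached by 6 members, beside 26.5% of all genes. The lowest adjusted p among uncalled members was 0.0946, of Mpeg1, and voom on the read numbers of 31 members also called 1 lower, beside 6.38% of all genes, and 0 higher. LXR DKO 1, 1 of the oocyte-containing libraries, weighed on this comparison. Without it 4 members were called higher, Cybb, Itgam, Cd53 and Mpeg1, beside 3.55% of all genes. Without both oocyte-containing libraries 2 were, Cd53 and Mpeg1, beside 2.13%.

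The second question is how the transgenic libraries differed from LXR DKO. Here 33 of 34 members had a log2 fold change below 0, beside 7667 of the 16422 genes tested. The median of the members was -0.93 (-0.86 over all 36 without the filter) against 0.01 over all genes. The ratio of the means had a median of 0.417 over all 36 members and was under 0.5 in 25 of them. In 25 of the 36 members, 24 of the 34 tested, every transgenic library lay below every LXR DKO library, beside 7.05% of all genes tested. The 24 include all 7 members that stayed under 1 RPKM in every transgenic library. Those 7 entered the test only through the other genotypes, so their order is no separate support. In bulk samples fewer macrophages and less of these RNAs per macrophage cannot be told apart. By the test, 1 member was called lower, Cd68, beside 0.0609% of all genes, and 0 were called higher, beside 0.0548%. An unadjusted p under 0.05 was reached by 25 members, beside 8.1% of all genes in either direction. Those 25 include the same 7 members except Ly86. The next lowest adjusted p was 0.0753, of Spi1, and voom called 0 in either direction. The single call was unstable: it was lost on leaving out any of 8 of the 9 libraries, while without WT 3, which enters this comparison only through the spread shared by all genotypes, 6 members were called lower (Cd68, Spi1, Tyrobp, C1qa, C1qb and C1qc), beside 0.317% of all genes. A fit of LXR DKO and transgenic libraries alone called 5, the same ones without Spi1, beside 0.256%.

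Against WT, 11 of the 34 tested members were called lower in the transgenic libraries, beside 6.72% of all genes, and 0 were called higher, beside 5.15%. They were Cd52, Spi1, Cyba, Cd68, Ctsk, Pf4, Tyrobp, C1qa, C1qb, C1qc and Ctss. An unadjusted p under 0.05 was reached by 20 members, beside 30.4% of all genes in either direction. Among these were Aif1, Ms4a7 and Ly86, which entered the test through the other genotypes. Voom called 8 lower, beside 5.86% of all genes, and 0 higher. The median log2 fold change was -0.68, tested or over all 36 without the filter, and 0.01 over all genes. Every transgenic library lay below every WT library in 21 of the 36 members, 20 of the 34 tested, beside 18.9% of all genes. The 20 include Ms4a7, Mrc1 and Ly86, which entered the test through the other genotypes. Cd52, Spi1, Cd68 and Tyrobp stayed called under all 17 alternative settings, and the others were lost under at least 1. The count fell to 4 or 5 on leaving out WT 2 or any transgenic library and to 4 without the filter on low values. The comparisons of transgenic with LXR DKO and with WT share the transgenic libraries, and those with WT share the WT libraries, so none is independent of the others.

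**Figure D2:**
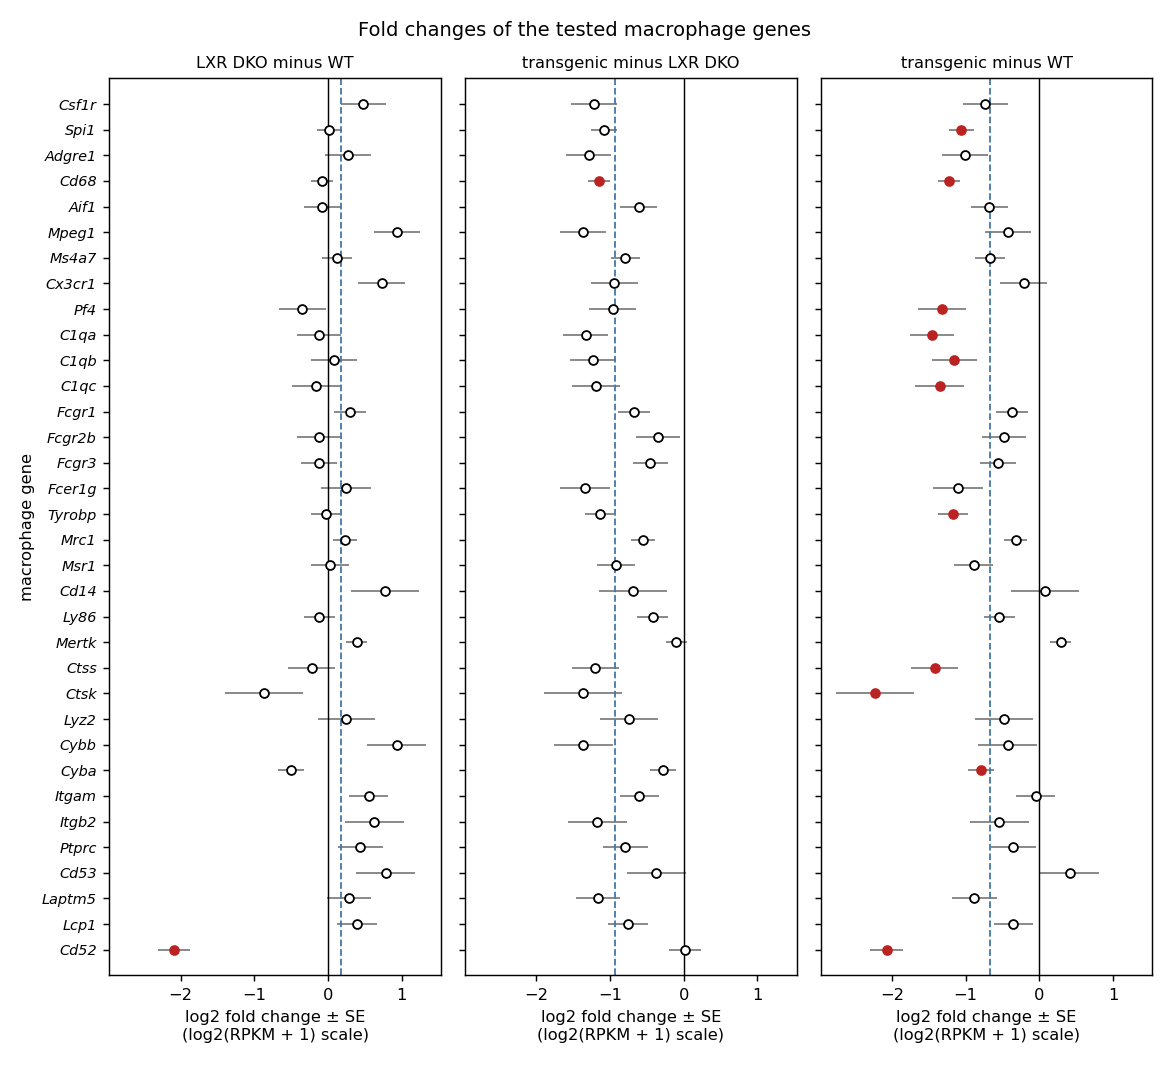
Log2 fold change ± SE (limma, log2(RPKM + 1) scale) of the 34 tested macrophage genes in the 3 comparisons named above each panel. Filled red points have an adjusted p below 0.05 (1, 1 and 11 genes), open points do not, and the dashed line is the median of the members (0.17, -0.93 and -0.68).

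All 9 identity genes had a lower mean in the transgenic libraries than in LXR DKO, with a median log2 fold change of -1.08 and a range of -1.36 to -0.61. Of these, Aif1, Ms4a7 and Cx3cr1 stayed under 1 RPKM in every transgenic library. They entered the test through the other genotypes, so their direction is no separate support. Cd68, a lysosomal glycoprotein used as a macrophage marker (chromosome 11, 69664213 to 69666153), stood at 41.8, 44.0 and 53.8 RPKM (WT 1 to 3), 39.5, 39.9 and 53.2 (LXR DKO 1 to 3) and 21.1, 16.3 and 20.3 (transgenic 1 to 3). WT and LXR DKO thus overlapped, and all 3 transgenic libraries lay below both. Cd68 fell by 1.15 ± 0.15 from LXR DKO to transgenic (limma, adjusted p = 0.0402) and by 1.23 ± 0.15 from WT (adjusted p = 0.00259), while LXR DKO minus WT was -0.08 ± 0.15 (adjusted p = 0.795).

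Spi1, which encodes PU.1 (chromosome 2, 91082390 to 91115756), stood at 5.77, 5.88 and 6.83 RPKM (WT 1 to 3), 4.81, 6.81 and 7.33 (LXR DKO 1 to 3) and 2.32, 1.90 and 3.19 (transgenic 1 to 3). The transgenic libraries again lay below all 6 others. Spi1 fell by 1.06 ± 0.17 from WT (limma, adjusted p = 0.00875), and transgenic minus LXR DKO was -1.08 ± 0.17 (adjusted p = 0.0753). The receptor gene Nr1h3 starts 120 kb from Spi1. It was lower in LXR DKO than in WT by 1.57 on the log2 scale (-1.57 ± 0.18, adjusted p = 0.00148), whereas Spi1 differed by 0.02 ± 0.17 (adjusted p = 0.966).

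Pf4, a chemokine of platelets that some tissue macrophages also make, stood at 3.02, 8.02 and 7.25 RPKM (WT 1 to 3), 5.46, 2.86 and 4.78 (LXR DKO 1 to 3) and 2.1, 1.12 and 1.96 (transgenic 1 to 3), and fell by 1.32 ± 0.32 from WT (limma, adjusted p = 0.0354). Its lowest WT library was close to the lowest LXR DKO library. Csf1r, the receptor for CSF1 and IL34, stood at 14.3, 14.6 and 16.4 RPKM (WT 1 to 3), 12.5, 25.5 and 30.8 (LXR DKO 1 to 3) and 6.64, 7.74 and 12.6 (transgenic 1 to 3). LXR DKO 1 at 12.5 was level with the highest transgenic library. The exons of Csf1r overlap those of Hmgxb3 on the other strand, whose mean was 10.9 RPKM, and the strand setting of the counting is not given, so its values are uncertain. Adgre1, the F4/80 antigen, had means of 12.8 ± 5.51, 15.4 ± 5.62 and 5.59 ± 1.34 RPKM in WT, LXR DKO and transgenic libraries (SD, n = 3), and was not called in any comparison.

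Mpeg1, which encodes the pore-forming protein perforin-2, stood at 3.30, 4.80 and 5.41 RPKM (WT 1 to 3), 5.10, 11.0 and 14.4 (LXR DKO 1 to 3) and 2.89, 2.60 and 3.80 (transgenic 1 to 3). It had the highest fold change of the identity genes in LXR DKO minus WT (0.94 ± 0.31, limma adjusted p = 0.0946). The fractalkine receptor Cx3cr1 was low, with 4.77 RPKM in LXR DKO 3 and at most 1.70 in any other library. Aif1 (the calcium-binding protein IBA1) and Ms4a7 did not exceed 2.55 and 1.85 RPKM, and neither was called.

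The 3 chains that assemble into C1q, the recognition molecule of the classical complement pathway, kept closely to one another and were the role group with the lowest median in transgenic minus LXR DKO (-1.23, range -1.33 to -1.19). C1qa stood at 22.2, 32.3 and 55.7 RPKM (WT 1 to 3), 29.9, 33.4 and 31.4 (LXR DKO 1 to 3) and 14.6, 8.48 and 13.6 (transgenic 1 to 3). C1qb measured 54.6, 60.3 and 139, then 76.2, 93.0 and 76.5, then 32.9, 29.6 and 40.9 RPKM. C1qc measured 20.5, 21.4 and 54.2, then 25.4, 25.9 and 26.0, then 10.9, 8.30 and 13.4 RPKM. In all 3 genes WT 3 was the highest of the 9 libraries, the LXR DKO libraries lay close to one another, and no transgenic library reached a WT or LXR DKO library.

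All 3 chains fell from WT to transgenic, by 1.45 ± 0.30 for C1qa (limma, adjusted p = 0.0209), 1.15 ± 0.31 for C1qb (adjusted p = 0.0466) and 1.35 ± 0.33 for C1qc (adjusted p = 0.0346). Each of these calls was lost without the filter on low values and in a fit of the 2 genotypes alone, with adjusted p-values of 0.0591, 0.113 and 0.0885 in the former. Without WT 3, the highest library, the chains fell by 1.1, 0.73 and 0.91 (adjusted p = 0.0107, 0.0102 and 0.00592). Transgenic minus LXR DKO was -1.33, -1.23 and -1.19 with adjusted p-values of 0.228, 0.294 and 0.329. With the WT libraries left out of the fit these became 0.0329, 0.0189 and 0.0277. LXR DKO minus WT lay between -0.16 and 0.08, and none was called.

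Tyrobp (DAP12, chromosome 7, 30413760 to 30417585), an adaptor with an ITAM motif that relays signals of several myeloid receptors, stood at 23.5, 29.0 and 37.7 RPKM (WT 1 to 3), 22.0, 36.3 and 30.1 (LXR DKO 1 to 3) and 12.5, 11.4 and 13.8 (transgenic 1 to 3). WT and LXR DKO overlapped throughout, and the transgenic libraries lay clear of them. It fell by 1.17 ± 0.20 from WT (limma, adjusted p = 0.0112), and transgenic minus LXR DKO was -1.14 ± 0.20 (adjusted p = 0.113). The related adaptor Fcer1g, the common gamma chain of Fc receptors, had means of 18.1 ± 5.91, 22.3 ± 9.49 and 7.81 ± 2.25 RPKM in the same order (SD, n = 3), with an adjusted p of 0.0707 in transgenic minus WT.

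Fcgr3, the low-affinity activating receptor and the highest of this group, stood at 25.6, 21.1 and 41.0 RPKM (WT 1 to 3), 20.8, 34.7 and 24.1 (LXR DKO 1 to 3) and 18.8, 19.0 and 18.6 (transgenic 1 to 3). The transgenic libraries lay just under the others, at -0.45 ± 0.24 from LXR DKO (limma, adjusted p = 0.700). The inhibitory receptor Fcgr2b overlapped between genotypes, with 2.1 to 4.79 RPKM in WT, 2.22 to 5.45 in LXR DKO and 2.25 to 2.32 in transgenic libraries. The high-affinity receptor Fcgr1 lay at 0.5 to 1.77, 1.43 to 1.93 and 0.444 to 0.845 RPKM. Trem2, a lipid-sensing receptor that signals through TYROBP, stood at 0.946, 1.40 and 1.96 RPKM (WT 1 to 3), 0.998, 0.647 and 0.732 (LXR DKO 1 to 3) and 0.463, 0.351 and 0.346 (transgenic 1 to 3), and was too low for the test.

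Of the 6 receptors for uptake and pattern recognition 5 were tested, and 0 were called in any comparison between genotypes (limma, with an unadjusted p under 0.05 in 1, 2 and 2 of them). Cd14, the lipopolysaccharide co-receptor, stood at 37.3, 33.5 and 53.5 RPKM (WT 1 to 3), 45.1, 151 and 49.5 (LXR DKO 1 to 3) and 35.8, 32.5 and 67.8 (transgenic 1 to 3). The 3 genotypes overlapped apart from LXR DKO 2, which was 2.23 times the next highest library. Mertk, a receptor for phosphatidylserine-bearing dying cells and a known target of liver X receptors in macrophages, stood at 6.06, 4.40 and 5.47 RPKM (WT 1 to 3), 7.12, 6.08 and 8.70 (LXR DKO 1 to 3) and 6.55, 7.11 and 6.35 (transgenic 1 to 3). It was the 1 member in which every LXR DKO library lay above every WT library, if narrowly (6.08 against 6.06 RPKM). The share of all genes with that order was not counted. Its log2 fold change in LXR DKO minus WT was 0.39 ± 0.14 (limma, adjusted p = 0.113).

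The class A scavenger receptor Msr1 had means of 4.67 ± 2.1, 4.69 ± 1.64 and 1.94 ± 0.133 RPKM in WT, LXR DKO and transgenic libraries (SD, n = 3). At an adjusted p of 0.0584 it was the closest to the threshold of the uncalled members in transgenic minus WT. The mannose receptor Mrc1 lay at 0.863 to 1.23, 0.905 to 1.66 and 0.485 to 0.675 RPKM. Ly86 (MD-1, a partner of the receptor RP105) lay at 0.788 to 2.01, 0.755 to 1.44 and 0.592 to 0.638 RPKM. In both, every transgenic library was below all others, at levels near the floor of the test.

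Among the lysosomal genes, Ctss, a cysteine protease that trims the invariant chain of MHC class II, stood at 53.1, 82.3 and 125 RPKM (WT 1 to 3), 46.6, 89.6 and 82.3 (LXR DKO 1 to 3) and 26.8, 28.3 and 35.4 (transgenic 1 to 3). It followed the common order of libraries and fell by 1.42 ± 0.32 from WT to transgenic (limma, adjusted p = 0.0280). Ctsk, a collagen-degrading protease best known from osteoclasts, starts 27.5 kb from Ctss on chromosome 3 and had another pattern. It stood at 87.1, 92.2 and 25.4 RPKM (WT 1 to 3), 44.0, 16.5 and 43.9 (LXR DKO 1 to 3) and 14.7, 8.23 and 13.4 (transgenic 1 to 3).

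WT 3, the highest WT library for most members, was the lowest for Ctsk, and LXR DKO 2 was the lowest of its genotype. Ctsk fell by 2.23 ± 0.53 from WT to transgenic (limma, adjusted p = 0.0321), but the call was lost on leaving out either of WT 1 and WT 2, any transgenic library, both oocyte-containing libraries or the filter on low values. Without WT 3 it fell by 2.82 (adjusted p = 0.00292). LXR DKO minus WT was -0.87 ± 0.53 (adjusted p = 0.343), and without WT 3 Ctsk fell by 1.46 there (adjusted p = 0.0487). Mmp9, a matrix protease of neutrophils and osteoclasts that is not a member and was noticed after its values were seen, had a like order at 52.7, 74.4 and 13.3, then 32.7, 16.9 and 41.1, then 11.5, 6.60 and 13.6 RPKM.

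Lyz2, the lysozyme of myeloid cells, stood at 343, 365 and 878 RPKM (WT 1 to 3), 423, 896 and 492 (LXR DKO 1 to 3) and 329, 296 and 412 (transgenic 1 to 3). WT 3 and LXR DKO 2 stood far above the rest, and Lyz2 was not called in any comparison. Its close copy Lyz1 was listed at 29.1 to 104 RPKM, and how reads shared by the 2 were counted is not given, so both values are uncertain.

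The 2 membrane subunits of the phagocyte oxidase form 1 heterodimer, but their RNAs had different orders of libraries. Cybb, the catalytic subunit gp91phox, stood at 7.49, 9.48 and 13.1 RPKM (WT 1 to 3), 10, 26.9 and 27.0 (LXR DKO 1 to 3) and 5.80, 5.24 and 11.1 (transgenic 1 to 3). It was high in LXR DKO 2 and 3 and not in LXR DKO 1, with LXR DKO minus WT at 0.93 ± 0.40 (limma, adjusted p = 0.175). Cyba, the p22phox subunit, which many cell types also use with other oxidases, stood at 35.1, 41.4 and 60.2 RPKM (WT 1 to 3), 27.7, 36.0 and 30.0 (LXR DKO 1 to 3) and 23.6, 25.4 and 27.1 (transgenic 1 to 3).

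Cyba had its highest mean in WT, and the transgenic libraries lay just below LXR DKO. It fell by 0.79 ± 0.18 from WT to transgenic (limma, adjusted p = 0.0296), LXR DKO minus WT was -0.50 ± 0.18 (adjusted p = 0.119) and transgenic minus LXR DKO was -0.28 ± 0.18 (adjusted p = 0.751). The call was lost with adjusted p-values of 0.0739 without the filter and 0.0537 with voom on the read numbers.

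Among the genes shared with other leukocytes, Cd52, which encodes a small GPI-anchored surface glycoprotein (chromosome 4, 134082448 to 134095082, minus strand), stood at 152, 109 and 137 RPKM (WT 1 to 3), 34.1, 33.5 and 23.9 (LXR DKO 1 to 3) and 25, 42.8 and 26.4 (transgenic 1 to 3). All 3 WT libraries lay above the other 6, and LXR DKO and transgenic libraries overlapped. Cd52 fell by 2.09 ± 0.22 from WT to LXR DKO (limma, adjusted p = 0.00120) and by 2.07 ± 0.22 from WT to transgenic (adjusted p = 0.00126). Transgenic minus LXR DKO was 0.02 ± 0.22 (adjusted p = 0.993). It was the 1 member in which every LXR DKO library lay below every WT library, and the share of all genes with that order was not counted.

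Of the 10 tested genes that start within 250 kb of Cd52, Ubxn11 and Sh3bgrl3 were called in LXR DKO minus WT. Over all genes 7.12% were called lower there and 3.47% higher. Ubxn11, 7.49 kb away, fell by 0.72 ± 0.15 (limma, adjusted p = 0.0215), and Sh3bgrl3, 33.7 kb away, fell by 0.71 ± 0.12 (adjusted p = 0.00920). Sh3bgrl3 fell by 0.72 ± 0.12 in transgenic minus WT as well (adjusted p = 0.00917), and Ubxn11 was at -0.22 ± 0.15 there (adjusted p = 0.355). The exons of Cd52 overlap Crybg2 on the other strand, whose mean was 0.0783 RPKM against 64.8 for Cd52.

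The integrin chains of the receptor Mac-1 were not called in any comparison. Itgam (CD11b) stood at 0.954, 0.667 and 1.52 RPKM (WT 1 to 3), 0.916, 2.75 and 2.60 (LXR DKO 1 to 3) and 0.859, 0.909 and 1.10 (transgenic 1 to 3). Its partner Itgb2 (CD18) lay at 12.6 to 22.0 in WT, 13, 31.2 and 38.0 in LXR DKO, and 7.29 to 15.1 RPKM in transgenic libraries. Both were high in LXR DKO 2 and 3 and level with WT in LXR DKO 1.

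Cd53, a leukocyte tetraspanin, stood at 8.91, 15.0 and 22.1 RPKM (WT 1 to 3), 13.2, 35.6 and 34.6 (LXR DKO 1 to 3) and 21.4, 16.0 and 21.6 (transgenic 1 to 3). It was the 1 leukocyte gene above 0 in transgenic minus WT (0.41 ± 0.40, limma adjusted p = 0.523). Laptm5, a lysosomal membrane protein of haematopoietic cells, had means of 12.4 ± 2.74, 16.1 ± 7.11 and 6.30 ± 1.59 RPKM (SD, n = 3) in WT, LXR DKO and transgenic libraries. Lcp1 (L-plastin, an actin-bundling protein) had means of 7.41 ± 1.36, 10.5 ± 4.27 and 5.61 ± 1.40 RPKM in the same order. The pan-leukocyte phosphatase Ptprc (CD45) was low, at 0.546 to 1.36, 0.651 to 3.20 and 0.378 to 0.560 RPKM. None of these was called.

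**Figure D3:**
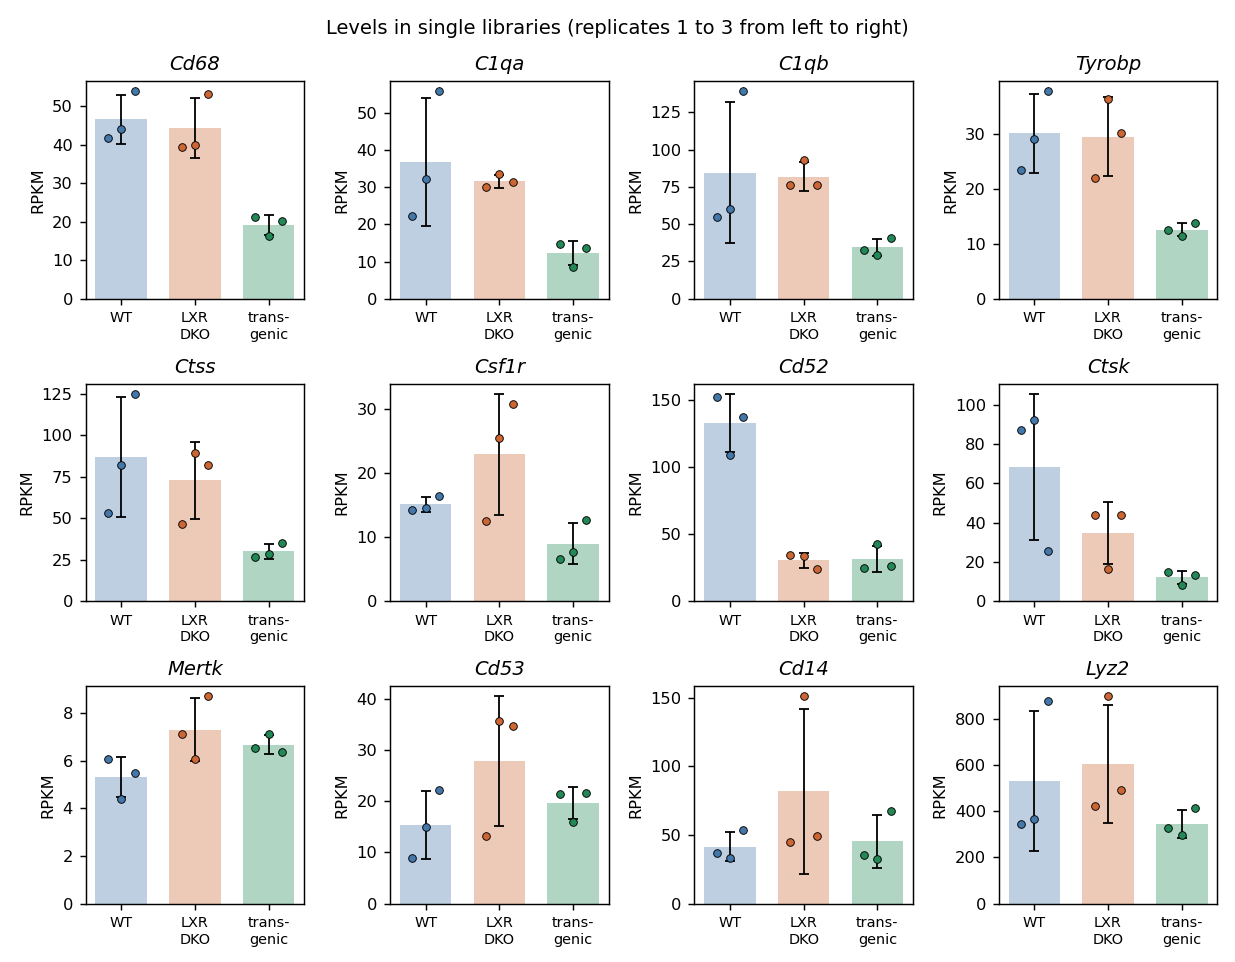
RPKM of 12 macrophage genes in single libraries (points, replicates 1 to 3 from left to right) with the genotype mean (bar) and SD (error bar), n = 3. In Cd68 the transgenic libraries lie at 16.3 to 21.1 below all others, Cd52 is at 109 to 152 in WT and at or below 42.8 elsewhere, Ctsk is lowest of WT in WT 3, and Cd14 has 1 high library in LXR DKO at 151.

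Whether single members departed from the rest was tested by subtracting from each, in every library, the mean log2(RPKM + 1) of the other tested members, and fitting limma again over all genes. In LXR DKO minus WT, 1 member departed, Cd52, at -2.27 ± 0.31 (adjusted p = 3.98e-05), beside 1.62% of all genes treated alike. In transgenic minus LXR DKO, 3 members lay above the rest and 0 below, beside 91.4% of all genes in either direction. That large share arises because the mean of the members itself was lower, so nearly every other gene moves against it, and the adjusted p-values are then close to unadjusted ones. The 3 were Cd52 (0.91 ± 0.31, adjusted p = 0.0105), Mertk (0.79 ± 0.29, adjusted p = 0.0146) and Cyba (0.60 ± 0.25, adjusted p = 0.0266). Without transgenic 2 the count was 0, without LXR DKO 3 it was 1 and without LXR DKO 1 it was 8, and it was 10 without both oocyte-containing libraries.

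In transgenic minus WT, 8 members departed from the rest, beside 65.8% of all genes. Those above the rest were Cd53 (1.2 ± 0.28, limma adjusted p = 0.00188), Mertk (1.07 ± 0.29, 0.00490), Cd14 (0.86 ± 0.33, 0.0275) and Itgam (0.73 ± 0.27, 0.0246). Those below the rest were Ctsk (-1.53 ± 0.44, limma adjusted p = 0.00698), Cd52 (-1.36 ± 0.31, 0.00154), C1qa (-0.72 ± 0.27, 0.0246) and Ctss (-0.69 ± 0.26, 0.0253). Of these, Cd53, Mertk and Cd52 kept the call in every setting tried, and Ctsk lost it only without both oocyte-containing libraries. The other 26 tested members were not called here.

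**Figure D4:**
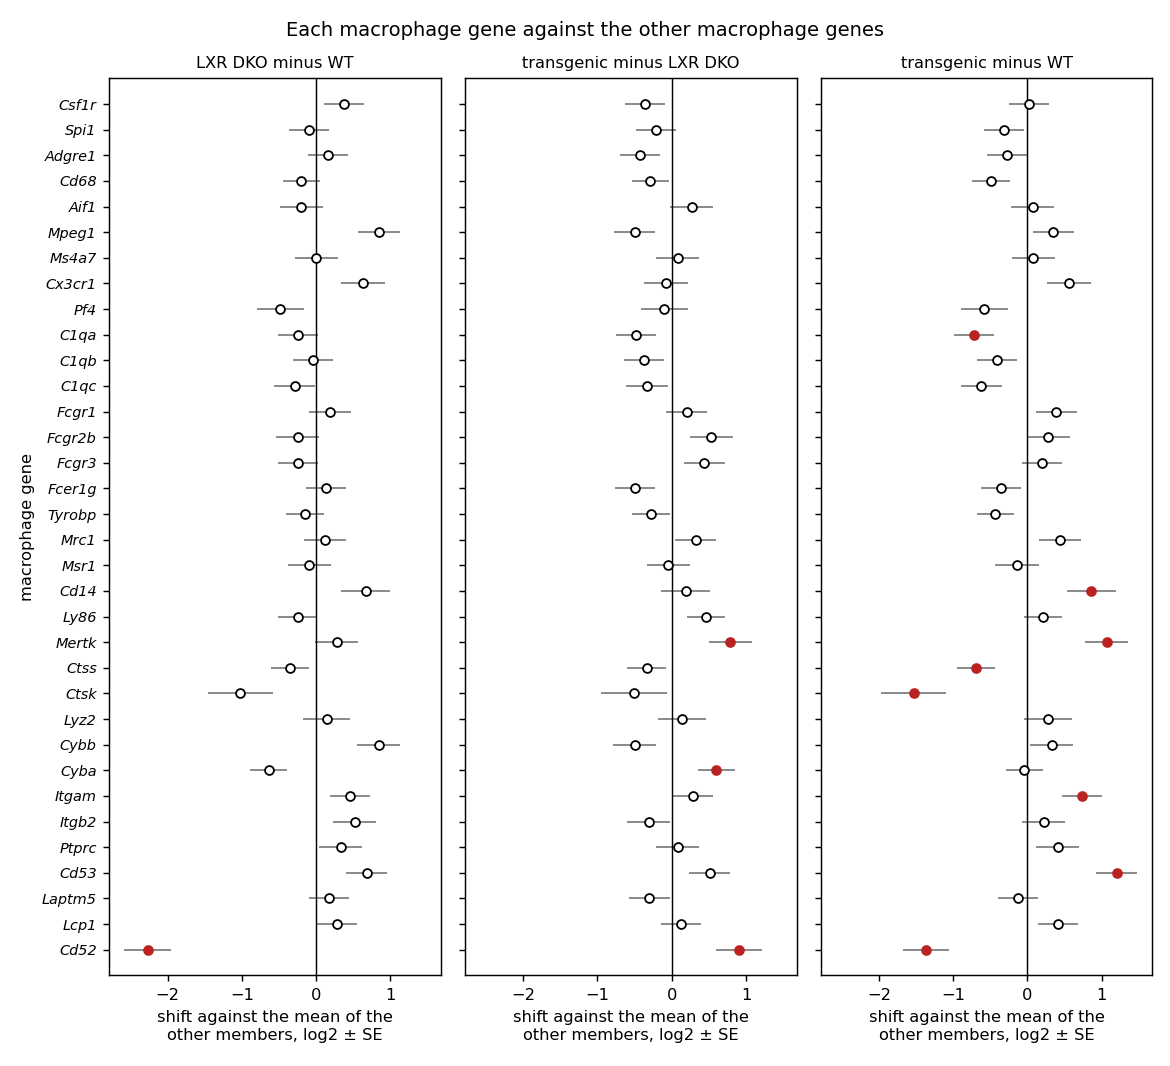
Log2 shift ± SE of each tested macrophage gene against the mean of the other tested members, in 3 comparisons between genotypes (limma). Filled red points have an adjusted p below 0.05: Cd52 at -2.27 on the left, Cd52, Mertk and Cyba above 0 in the middle, and 4 genes on either side of 0 on the right.

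Partner genes of the same pathways, listed by function, gave 0 calls in transgenic minus LXR DKO in every list (limma). At an unadjusted p under 0.05 in either direction, reached by 8.1% of all genes, there were 7 of 12 in ITAM signalling, 4 of 10 in MHC class II, 5 of 9 in other complement, 2 of 5 in the cytosolic oxidase, 5 of 13 in apoptotic cell uptake, 3 of 16 in the lysosome and 1 of 13 in recruitment. Of 12 genes that signal downstream of ITAM adaptors, 11 lay below 0 in that comparison (median -0.64) and 12 above 0 in LXR DKO minus WT (median 0.35), where 0 were called. Fyb, an adaptor of integrin activation, fell by 0.64 ± 0.15 from WT to transgenic (limma, adjusted p = 0.0335). Of 13 MHC class II and costimulation genes, 10 were tested and all 10 lay below 0 in transgenic minus LXR DKO (median -0.60). Cd74, the invariant chain and the highest of these, stood at 116, 228 and 249 RPKM (WT 1 to 3), 168, 323 and 222 (LXR DKO 1 to 3) and 77.1, 109 and 119 (transgenic 1 to 3) (-1.19 ± 0.33 in transgenic minus LXR DKO, adjusted p = 0.329). Cd83 rose by 0.95 ± 0.24 in LXR DKO (adjusted p = 0.0389).

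Among the cytosolic partners of the oxidase, 2 of 5 fell from WT to transgenic, beside 6.72% of all genes. Ncf4 (p40phox) fell by 1.64 ± 0.17 (limma, adjusted p = 0.00108) and the GTPase Rac2 by 1.22 ± 0.33 (adjusted p = 0.0485). Cybc1, needed for the assembly of the membrane subunits and the highest of the list, stayed at 13.5 to 16.2 RPKM, and Ncf1 was at 0.23 in transgenic minus WT without being called. Of the other complement genes, 9 of 14 were tested. Properdin (Cfp, -1.23 ± 0.30, adjusted p = 0.0356) and the anaphylatoxin receptor C3ar1 (-0.96 ± 0.22, adjusted p = 0.0303) fell from WT to transgenic.

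Genes for the uptake of apoptotic cells did not move as a block, with 7 of 13 tested below 0 in transgenic minus LXR DKO (median -0.03). Mfge8, a bridging protein for dying cells, was lower in LXR DKO than in WT (-0.57 ± 0.14, limma adjusted p = 0.0322). The scavenger receptor Cd36 (-0.85 ± 0.20, adjusted p = 0.0314) and the engulfment adaptor Elmo1 (-0.71 ± 0.17, adjusted p = 0.0305) fell from WT to transgenic, and Itgb5, the highest of the list, lay at 170 to 276 RPKM. General lysosomal genes, present in most cells, had a median of 0.16 in LXR DKO minus WT, of -0.13 from LXR DKO to transgenic and of -0.02 from WT to transgenic. Among the 16, Ctsl rose in LXR DKO (0.56 ± 0.11, adjusted p = 0.0157), and Psap, the highest, lay at 1290 to 2350 RPKM.

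Among ligands and receptors that recruit or maintain macrophages, 13 of 16 were tested. Il34, an alternative ligand of CSF1R, stood at 2.21, 1.74 and 2.49 RPKM (WT 1 to 3), 4.60, 4.13 and 5.61 (LXR DKO 1 to 3) and 4.80, 3.61 and 4.44 (transgenic 1 to 3). Il34 gained 0.88 ± 0.14 from WT to LXR DKO (limma, adjusted p = 0.00777) and was also higher in transgenic than in WT (0.75 ± 0.14, adjusted p = 0.0154). The chemokine receptor Cxcr4 rose by 0.75 ± 0.13 and 0.55 ± 0.13 in the same comparisons (adjusted p = 0.00949 and 0.0299). Csf2ra, the GM-CSF receptor chain and the highest of the list, fell by 0.59 ± 0.10 and 0.74 ± 0.10 (adjusted p = 0.0103 and 0.00444). Csf1 itself stayed at 0.604 to 1.73 RPKM and Ccl2, a chemokine for monocytes, at 0.783 to 3.23, and neither was called.

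Markers of other cells were read in the same libraries, by the mean log2(RPKM + 1) of each list. The 10 monocyte markers stood at 1.33 to 1.85 in WT, 1.81 to 2.25 in LXR DKO and 1.55 to 1.70 in transgenic libraries, with 0 of the 7 tested called. The 7 B cell markers stood at 0.54, 2.39 and 1.33 in WT, 0.93 to 1.29 in LXR DKO and 0.39 to 0.57 in transgenic libraries. WT 2 was the highest, with Cd79b at 21.8 RPKM against 0.809 to 6.48 elsewhere, and Ms4a1 fell from WT to transgenic (-1.23 ± 0.33, limma adjusted p = 0.0446). Ms4a1 lay at 0.251 to 0.31 RPKM in transgenic libraries and so entered the test through the other genotypes. The 14 T and NK cell markers stood at 0.48 to 0.78 in all libraries, the T cell genes Cd3e and Cd3d did not exceed 0.151 and 0.258 RPKM, and Klrb1c, the highest, lay at 14.8 to 29.3. None of the 11 mast cell and eosinophil markers was tested, and none of the 3 tested dendritic cell markers was called, with Ccr7 at 2.55 to 11.8 RPKM.

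The 12 neutrophil markers stood at 0.95 to 1.47 in WT, 1.40 to 2.24 in LXR DKO and 1.36 to 1.55 in transgenic libraries. In transgenic minus WT the 6 tested had a median of 0.23 and a range of -1.80 to 3.13, with 4 above 0 and 2 below. Mmp8 (2.34 ± 0.59, limma adjusted p = 0.0376) and Ltf (3.13 ± 0.79, adjusted p = 0.0372) rose, and Ltf is also made by epithelia. The lowest value was that of Mmp9 (-1.80 ± 0.59, adjusted p = 0.0803). Of the 8 oviduct epithelium markers, 8 lay above 0 in transgenic minus LXR DKO (median 1.09) and Cdh1 rose from WT to transgenic (1.80 ± 0.49, adjusted p = 0.0466). Their mean was 3.84, 3.78 and 6.27 (WT 1 to 3), 4.60, 5.30 and 4.87 (LXR DKO 1 to 3) and 6.0, 5.92 and 6.29 (transgenic 1 to 3). The oviduct glycoprotein gene Ovgp1, the highest, measured 52.2, 109 and 1130, then 226, 655 and 477, then 1270, 1860 and 1680 RPKM. The list mean of WT 3 lay within the transgenic range, and the single genes differed in direction. Ovgp1 and Cdh1 (17.6 RPKM in WT 3, 24.2 to 30.4 in transgenic libraries) were lower in WT 3 than in every transgenic library. Cldn3 (63 against 40.7 to 46.1), Krt18 (576 against 292 to 396) and Krt8 (211 against 141 to 176) were higher in WT 3. Epcam, Foxj1 and Pax8 in WT 3 lay within the transgenic range. The part of these cells in the macrophage result was not tested.

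The 14 granulosa and cumulus markers had a median of -0.01 in transgenic minus LXR DKO, where 0 were called, and their mean stood at 3.94 to 4.24 in LXR DKO and 3.99 to 4.21 in transgenic libraries. In LXR DKO minus WT, 4 of the 13 tested fell, beside 7.12% of all genes: Hsd17b1 (-1.32 ± 0.22, limma adjusted p = 0.00900), Tnfaip6 (-1.89 ± 0.17, 0.000396), Inhba (-0.89 ± 0.19, 0.0242) and Ptx3 (-0.91 ± 0.22, 0.0356). The same 4 and Has2 fell in transgenic minus WT, beside 6.72% of all genes. Has2 reached 1 RPKM only in WT libraries (1.16 to 2.79 RPKM, against 0.504 to 0.839 elsewhere), so it entered the test through WT alone. The haemoglobin and other erythroid markers stood at 7.31 in WT 3 and at 2.28 to 5.30 in the other libraries, and the oocyte markers at 5.97 in WT 1, 3.85 in LXR DKO 1 and 0.10 to 1.57 elsewhere. Of 3 tested endothelial markers, Esam rose from WT to transgenic (1.38 ± 0.21, adjusted p = 0.00662), while Pecam1, the highest, lay at 0.928 to 3.16 RPKM. Esam reached 1 RPKM only in transgenic libraries (2.24 to 3.18 RPKM) and so entered the test through them alone.

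**Figure D5:**
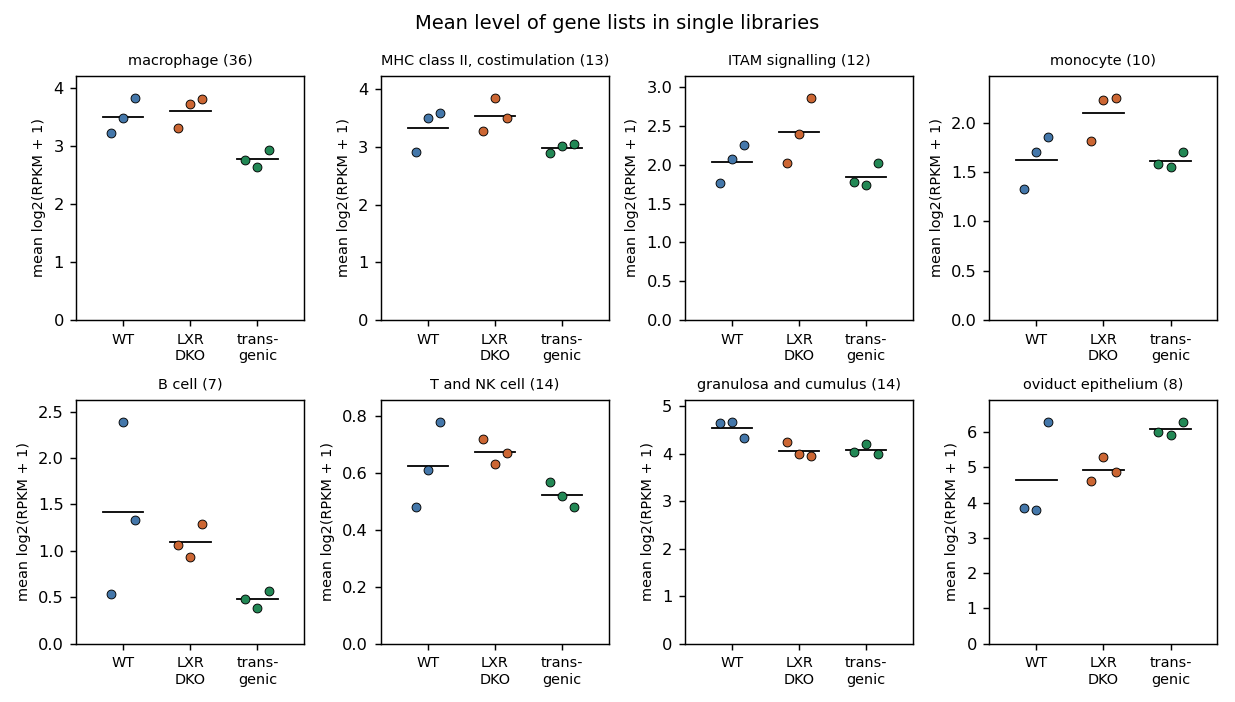
Mean log2(RPKM + 1) of 8 gene lists (number of genes in brackets) in single libraries, with the genotype mean as a line. The macrophage mean is 2.64 to 2.94 in transgenic libraries and 3.22 to 3.83 elsewhere, the granulosa mean is near 4 in LXR DKO and transgenic alike, and the oviduct mean is 6.27 in WT 3, within the transgenic range of 5.92 to 6.29.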

How the data were processed

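The authors deposited 1 matrix of RPKM values, listed by Ensembl gene with symbols, for 9 libraries, and 0 columns of values were left unused. Tools listed in the submitters' processing notes, with no role given, are HISAT2 2.1.0, HTSeq 0.5.4p5, cutadapt and DESeq2 1.2.8, and the build is mm10. Strand setting, annotation release and handling of multiply mapped reads were not given in the sources. The RNA was total RNA from a column kit, per the labels' protocols. Column names of the transgenic libraries have 1 letter other than in the descriptions, and TG with the replicate number matched them. Groups came from the genotype label.

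Values were transformed to log2(RPKM + 1) and fitted in limma 3.58.1 (R 4.3.3; Python 3.11.15 for the rest) with genotype as the factor, all 9 libraries, a mean-variance trend and Benjamini-Hochberg adjustment over the 16422 genes with 1 RPKM or more in 3 or more libraries. The pseudocount of 1 understates changes of low genes. With GENCODE M21 exon lengths, the deposited RPKM values were whole reads, to within 0.02 reads (0.02 per 1000 reads above 1000), for 37161 of 37863 genes above 0 (98.1%). No 2 libraries of a genotype agreed within sampling noise. Alternatives were a pseudocount of 0.1, other filters, quantile normalization, a fit of the 2 genotypes compared, voom on read numbers, a replicate block, and leaving out libraries. The fits were tested on simulated data.

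The members and all gene lists were chosen with earlier results of these data known. All members were counted. Values for every library were given for members called in any of the 6 fits to all 9 libraries given in the report and the highest member of each role group, and in other lists the called genes and the highest gene were named. A few further members and genes were added for their roles. Some genes of these other lists, called ones included, are not reported here.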

Additional observations from a re-analysis of the deposited data

How the results depend on the processing

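The median log2 fold change of the members stayed below 0 for the transgenic libraries, against LXR DKO and against WT, under all 17 alternatives, and ranged over them from -1.22 to -0.85 and from -1.09 to -0.50. In LXR DKO minus WT it ranged from -0.01 (without WT 1) to 0.36. No value of a called member reversed, and 0 members were called higher in either comparison of the transgenic libraries under any alternative. Of 25 called values, 10 kept their call on leaving out any library and 13 under all other settings.

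Members called lower in LXR DKO minus WT numbered 1 to 2 on leaving out 1 library (2 without WT 3), and members called higher 0 to 4, with 2 without both oocyte-containing libraries. Members called lower in transgenic minus LXR DKO numbered 0 without a filter, 0 with voom on read numbers, 5 in a fit of the 2 genotypes alone, 2 without both oocyte-containing libraries (Tyrobp and Mpeg1), and 0 to 6 on leaving out 1 library. Members called lower in transgenic minus WT numbered 4 without a filter, 7 in a fit of the 2 genotypes alone and 4 to 12 on leaving out 1 library. Members that departed from the others numbered 2 without a filter, 3 without both oocyte-containing libraries and 1 to 4 on leaving out 1 library in LXR DKO minus WT. In transgenic minus LXR DKO they numbered 5 in a fit of the 2 genotypes alone, 10 without both oocyte-containing libraries and 0 to 8 on leaving out 1 library. In transgenic minus WT they numbered 5 with a pseudocount of 0.1, 5 with an RPKM of at least 5 in 3 libraries and 5 to 10 on leaving out 1 library. The cause of these changes was not tested.

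Over all genes, transgenic minus LXR DKO gave 10 lower and 9 higher calls, against 42 and 51 in a fit of the 2 genotypes alone and 52 and 98 without WT 3. LXR DKO minus WT gave 1169 and 570, against 719 and 313 without a filter, 581 and 226 in a fit of the 2 genotypes alone, 796 and 349 without both oocyte-containing libraries, and 428 and 181 without LXR DKO 3. Transgenic minus WT gave 1103 and 846, against 645 and 451 without a filter, 783 and 465 without both oocyte-containing libraries, 403 and 247 without transgenic 3, and 1477 and 2078 without WT 3.

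Deviations of libraries with the same replicate number from their genotype means had correlations of -0.29 to 0.67, against -0.55 to 0.53 for different numbers. The highest was that of WT 1 with LXR DKO 1, both oocyte-containing. So few libraries cannot show whether the numbers pair them, and the labels name no pairing. With a replicate block 1 member (Mpeg1) was called higher in LXR DKO minus WT, and the members that departed from the others numbered 3 in LXR DKO minus WT and 11 in transgenic minus LXR DKO. With 3 libraries per genotype the SE of a member's fold change was 0.14 to 0.53, which limits the differences that can be called.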
